A study of Mus musculus with 12 samples.

Results

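Bcl11b-deleted cells converted from thymocytes (ITNK) were compared with their parental thymocytes (DN3) and with natural killer cells (LAK) as a pooled reference, to describe the genes whose level in ITNK cells lay outside the range spanned by both reference populations. The 4 ITNK arrays were set against the equal-weight mean of the DN3 mean (4 arrays) and the LAK mean (4 arrays), that is all 12 arrays of the series. A gene counted as above both when ITNK passed the test against DN3 and against LAK with a higher mean in each, and as below both when both means were higher than that of ITNK. Of 8100 genes tested, 424 were above both (5.23%) and 294 below both (3.63%).

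ITNK stands for induced T-to-natural-killer cells, labelled as derived from DN3 cells. DN3 cells are T cell precursors of the thymus that lack CD4 and CD8, and are labelled as the parental T cells. LAK cells are natural killer cells grown in IL-2. Gene expression was read on Illumina mouse bead arrays. All 12 samples carry one protocol text. It describes thymocytes or splenocytes of Cre-ERT2; Bcl11b flox/flox mice, whose floxed Bcl11b is deleted by a recombinase that tamoxifen switches on, held for 48 h with 1 µM 4-hydroxytamoxifen (OHT) in medium with Flt3 ligand and IL-7 at 5 ng/ml each. Sorted DN3 cells of the Bcl11b CKO/CKO and CKO/+ genotypes were then grown on OP9-DL1, a mouse stromal line that presents a Notch ligand, with IL-2 at 100 ng/ml, until 14 days after OHT. A further step grew splenic cells in IL-2 at 1000 U/ml. The text does not tie these genotypes and steps to the ITNK, DN3 or LAK arrays, and strain is labelled C57B with a last digit that varies between samples. It leaves unsaid whether the 4 arrays of a population stem from different mice or cultures, and the p-values therefore reflect the array-to-array spread alone, which could be technical. The number of arrays limits the precision. A difference in culture between ITNK cells and either reference cannot be told apart from a difference in cell type.

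Bcl11b is a zinc finger transcription factor that T cell precursors switch on as they commit to the T lineage, and it keeps the natural killer programme silent in them. Cells that lose it take up natural killer receptors, adaptors and killing molecules. A converted cell can therefore resemble its parent in some genes and the natural killer cell in others, and such genes lie between both references. The genes described here are those whose level in ITNK lies outside both.

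In the pooled comparison 2762 genes passed the test (34.1% of genes; limma, adjusted p under 0.05), 1348 higher in ITNK (16.6%) and 1414 lower (17.5%). At least 2-fold differences were more often upward, with 334 genes higher and 110 lower. Of the 1348 higher genes 424 were above both references and 146 lay between them; the others were past the test against DN3 alone (572), LAK alone (201) or neither (5). Of the 1414 lower genes 294 were below both, 97 lay between, and 721, 287 and 15 were past the test against DN3 alone, LAK alone or neither. A pooled difference by itself thus did not place ITNK outside both references. By group means alone, without a test, ITNK was above both references in 1731 genes (21.4%), below both in 2137 (26.4%) and between them in 4232 (52.2%).

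Genes beyond both references were further out above than below. The margin, the smaller of the 2 differences from the references on the log2 scale, had a median of 0.65 among the 424 genes above both and reached 4.21, while among the 294 below both its size had a median of 0.46 and reached 1.67. At least 2-fold against each reference, 125 genes were above both (1.54% of genes) and 14 below both (0.173%). All 4 ITNK arrays lay above all 8 reference arrays in 327 of the 424 genes, and below all 8 in 208 of the 294. Over all genes tested these non-overlapping patterns were seen in 370 (4.57%) and 255 (3.15%). LAK and DN3 did not pass the test against each other in 235 of the 424 and 194 of the 294 genes. The same held for 2211 of the 2838 genes past neither test, 391 of 2535 apart from DN3 alone and 166 of 1078 apart from LAK alone. The median absolute difference between LAK and DN3 was 0.28 above both and 0.21 below both. It was 0.18, 0.61 and 0.62 in those other classes in the same order. Among the 931 genes where ITNK lay between, which by definition have the references apart, it was 1.66.

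**Figure D1:**
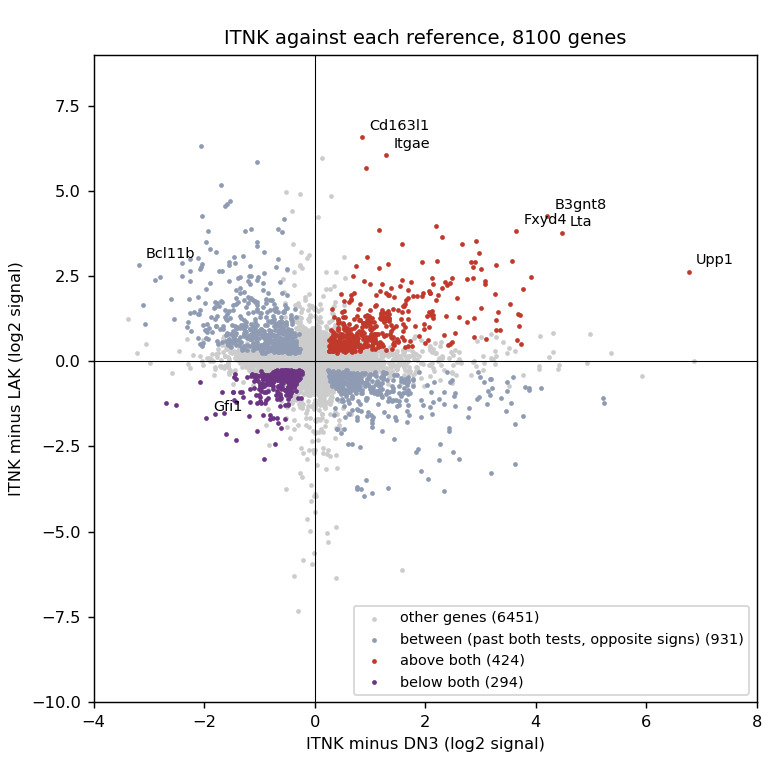
Each point is 1 of 8100 genes, with the ITNK minus DN3 difference on the x axis and the ITNK minus LAK difference on the y axis (both log2 signal). The 424 genes above both (upper right) extend to margins of 4.21, and the 294 below both (lower left) stay within 1.67 of the nearer reference.

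The split between upward and downward genes depended on scaling. The share of pooled calls that were higher was 48.8%, and 70.8% when arrays were scaled to a common median without the quantile step; that scaling moved the median ITNK minus DN3 difference of all genes from -0.04 to 0.19. Of genes beyond both references 59.1% were above, and 77.8% with median scaling or 72.3% with the authors' processed values. Slide here means the number that groups of arrays share in the codes of the sample titles, which do not call it a slide. Slide 1 held the 4 LAK arrays with ITNK 1 and 2, and slide 2 the 4 DN3 arrays with ITNK 3 and 4. The pooled difference is therefore balanced over slides, and its value does not change with slide as a block. With that block, each difference rests on 1 slide (ITNK 1 and 2 against LAK, ITNK 3 and 4 against DN3), and 301 genes were above both, 291 of them among the 424. Below both there were 157, of which 144 were among the 294. Of the genes at least 2-fold beyond both without the block, 124 of 125 stayed above both and 14 of 14 below both, at any fold. With the block, 120 genes were at least 2-fold above both and 13 at least 2-fold below both.

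Dim genes contributed to both sets, and more to the upward one. In 44 of the 424 genes the transcript was detected on no reference array, and a fold is then written as a lower bound against the lowest detected signal. Such a gene entered the test only if every ITNK array detected it, so its detection throughout ITNK follows from the filter. Among 5835 genes detected on all 12 arrays, 256 were above both (4.39%) and 237 below both (4.06%). Each gene is read from its brightest probe. Another kept probe existed for 128 of the genes above both; in 73 every other probe was also above both and in 0 was one below both. Of 98 such genes below both, every other probe was below both in 26, and 2 had one above both. In these bulk samples fewer cells expressing a gene and less RNA per cell cannot be told apart.

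The targeted gene was not among the genes beyond both. Bcl11b was at 9.10, 8.49, 8.38 and 8.39 on the 4 ITNK arrays, 11.41 to 11.92 on the DN3 arrays and 5.25 to 6.01 on the LAK arrays (log2 signal). It lay between them without overlap, at -3.18 from DN3 (SE 0.20, adjusted p = 2.24e-08) and 2.83 from LAK, so that its pooled difference was -0.18 (adjusted p = 0.458). These values are from its brightest probe. Its other kept probes also lay between, at -1.17 and -1.03 from DN3 and, in the same order, 3.90 and 1.12 from LAK. The size of the drop from DN3 thus differed by probe. The labels do not place its probes against the floxed exon, so the signal left in ITNK does not measure the deletion. Cd3e and Fcer1g, both picked out after their values were seen, are transcripts of the T cell and natural killer programmes that ITNK cells carried. Cd3e, a signalling chain of the T cell receptor, was at 11.21 to 11.50 in ITNK, 11.83 to 12.01 in DN3 and 5.53 to 7.27 in LAK. Fcer1g, an adaptor of natural killer receptors, was at 11.78 to 12.87, 5.65 to 6.91 and 12.23 to 12.90 in the same order. Other members of these programmes differed. All 6 measured Ly49 receptors were apart from LAK alone, with a list mean of 4.39 to 4.54 in ITNK and 8.94 to 9.96 in LAK. Of 21 natural killer receptors and adaptors 11 lay between. Of 16 T lineage surface and signalling genes 5 lay between, 3 were apart from DN3 alone and 6 from LAK alone. Over all genes tested 11.5% lay between, 31.3% were apart from DN3 alone and 13.3% from LAK alone.

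The 14 genes furthest above both references were of mixed kinds, among them a cytokine, a homing receptor, enzymes of sugar and nucleotide metabolism, a long non-coding RNA and a hemoglobin chain. Lta encodes lymphotoxin alpha, a secreted cytokine of the TNF family, and was at 9.95, 9.89, 9.67 and 9.72 in ITNK, 5.19 to 5.61 in DN3 and 5.63 to 6.32 in LAK. Its differences were 4.49 and 3.76 (SE 0.15, adjusted p = 6.16e-11 and 2.23e-10 in limma). B3gnt8, a glycosyltransferase that extends N-glycans with N-acetylglucosamine, had the largest margin. Its levels were 9.34, 9.62, 9.49 and 9.94 in ITNK against 4.99 to 5.79 in DN3 and 4.75 to 6.21 in LAK, and both differences, 4.21 and 4.26 (SE 0.27, adjusted p = 2.6e-08 and 2.43e-08), were alike in size. Among these 14 genes the largest pooled differences were those of Upp1 at 4.70, B3gnt8 at 4.23 (SE 0.23) and Lta at 4.12 (SE 0.13).

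Both surface receptors and enzymes at the cell membrane stood out. Gpr15, a homing receptor that guides T cells to the large intestine, was at 8.11, 8.16, 7.75 and 7.87 in ITNK, 4.69 to 5.44 in DN3 and 4.51 to 5.26 in LAK (differences of 2.98 and 3.18, SE 0.18), and it was detected on 1 array of each reference. Nt5e, the ectoenzyme CD73 that makes adenosine from AMP, was at 8.98, 8.92, 8.78 and 9.19 in ITNK against 5.11 to 6.56 and 5.76 to 6.50 (differences of 3.28 and 2.83, SE 0.25). Upp1, uridine phosphorylase, which salvages pyrimidines, showed a graded pattern with 4.56 to 5.64 in DN3, 8.88 to 9.45 in LAK and 11.73, 11.85, 11.94 and 11.69 in ITNK. ITNK thus went past LAK by 2.63 (SE 0.20, adjusted p = 1.47e-07) in a gene that already separated LAK from DN3 by 4.14.

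Several of the 14 genes were not detected on any reference array. Fxyd4, a regulatory subunit of the sodium pump, was at 8.53, 8.01, 8.23 and 7.84 in ITNK, at least 12.2-fold above DN3 and 13.6-fold above LAK (adjusted p = 2.03e-10 and 6.41e-11). Otof, which encodes otoferlin, a calcium sensor of vesicle fusion known from inner hair cells, was at 7.50, 7.44, 7.44 and 7.10, at least 7.43-fold and 7.5-fold above the references. The long non-coding RNA Miat was at 7.55, 7.47, 6.77 and 7.08, at least 6.85-fold and 7.3-fold higher, and the magnesium channel gene Trpm6 at 7.35, 7.15, 7.37 and 7.86, at least 7.09-fold and 6.79-fold higher. The transcripts of these genes were detected in ITNK cells and in neither reference. Without detection in the references, a gene passed the detection filter only if every ITNK array detected it. Detection throughout ITNK was therefore a condition of entry and no separate result. Pdzk1, a scaffold of membrane transporters, was at 7.58, 7.96, 7.67 and 7.61 in ITNK, at least 8.04-fold above DN3 and 2.70 above LAK on the log2 scale, where 1 array detected it.

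The remaining genes furthest above both were Arfgef3, an Arf exchange factor relative, Fam20a, a pseudokinase of the secretory pathway, Niban2, and Hba-a1, the alpha chain of adult hemoglobin. Arfgef3 was at 8.78 to 9.45 in ITNK, 5.13 to 5.74 in DN3 and 5.68 to 6.60 in LAK. Fam20a was at 8.92 to 9.33 against 5.85 to 6.86 and 5.27 to 6.52, and Niban2 at 10.00 to 10.14 against 5.65 to 6.97 and 7.56 to 7.63. Hba-a1, a marker of red blood cell precursors, was at 8.03 to 9.06 in ITNK against 5.38 to 5.76 and 4.56 to 5.45. That the lowest ITNK array was above the highest reference array in each of these genes follows from the rule of choice. Hba-a1 was detected on 2 LAK arrays and on all 4 arrays of the other groups.

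**Figure D2:**
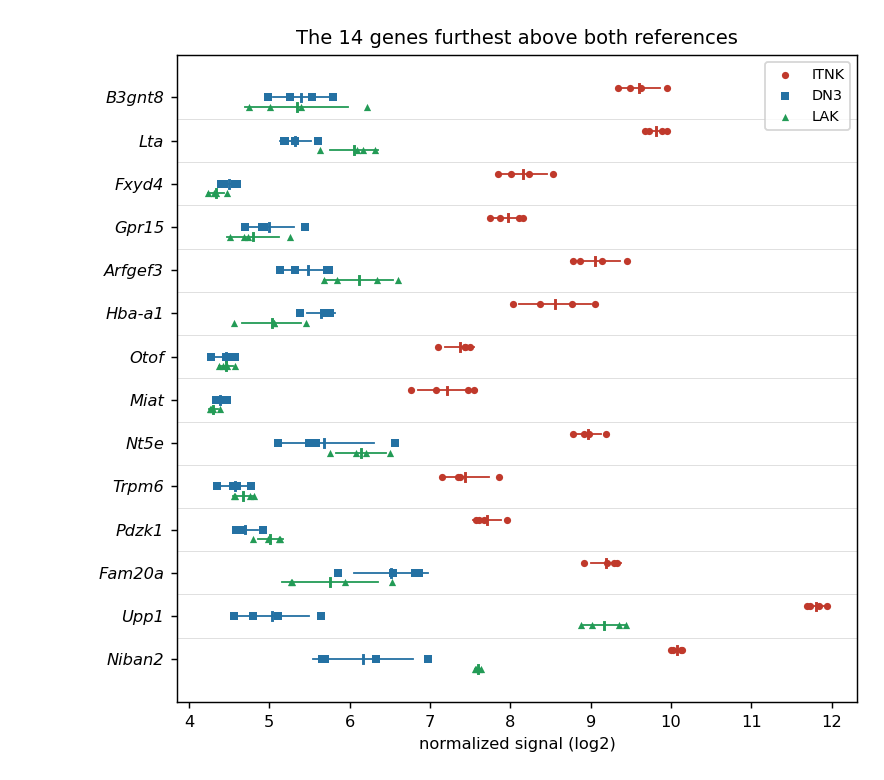
Normalized log2 signal of the 14 genes with the largest margins above both references, 1 point per array and 4 arrays per group, with the group mean (tick) and 1 SD (line). For Lta the 4 ITNK arrays sit at 9.67 to 9.95, and for Upp1 LAK stands apart from DN3 but below ITNK.

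The 14 genes furthest below both references had smaller margins and included a transcription factor, a myosin and several adhesion and adaptor proteins. Gfi1, a zinc finger repressor that acts in early T cell and innate lymphoid development, led them at 6.71, 6.41, 6.46 and 6.48 in ITNK, 8.40 to 8.61 in DN3 and 7.89 to 8.56 in LAK. It was lower by both comparisons, with differences of -1.96 and -1.67 (SE 0.15, adjusted p = 1.32e-07 and 7.85e-07 in limma), and a pooled difference of -1.82 (SE 0.13). LAK and DN3 differed by -0.29 (adjusted p = 0.102). Myo6, a myosin that moves cargo towards the minus end of actin filaments, was at 7.14, 6.86, 6.61 and 6.87 in ITNK against 8.29 to 8.68 and 8.83 to 9.25, differences of -1.60 and -2.12 (SE 0.14). That no ITNK array overlapped a reference array in either gene follows from this choice.

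Pecam1, the adhesion molecule CD31, was at 6.16, 5.75, 5.60 and 5.16 in ITNK, 6.91 to 7.31 in DN3 and 7.37 to 8.41 in LAK, differences of -1.42 and -2.30 (SE 0.23). Of its 2 other probes 1 was below both and 1 was lower than LAK alone. Fyb, an adaptor that links antigen receptors to integrins, was at 8.42, 8.12, 7.83 and 7.81 in ITNK against 9.05 to 9.46 and 8.91 to 9.39. Its differences were -1.29 and -1.04 (SE 0.15, adjusted p = 1.04e-05 and 0.000129). Gimap7, a GTPase of lymphocyte survival, was at 7.16 to 7.66 in ITNK against 8.09 to 8.86 and 8.64 to 10.11, and Sema7a, a membrane-anchored semaphorin, at 5.83 to 6.53 against 7.20 to 8.01 and 6.69 to 8.02. In both genes the LAK arrays were spread over more than 1 log2 unit.

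Metabolic and transport genes were also among them. Adssl1, an adenylosuccinate synthase of purine metabolism, differed by -1.43 and -1.21 (SE 0.19) and Slco4a1, an organic anion transporter, by -1.18 and -1.21 (SE 0.15). Lrig3, a membrane protein with leucine-rich repeats, was detected on no ITNK array and was at least 2.28-fold below DN3 and 3.02-fold below LAK. Btbd11, Denn2b and 2010016I18Rik, to which no function is assigned here, had margins of 1.54, 1.05 and 1.50 log2 units below the nearer reference.

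The last of the 14 were Ccl9, a chemokine, and H2-Ab1, a class II antigen-presenting chain. Ccl9 was at 4.60, 4.55, 5.23 and 4.63 in ITNK, with detection on 1 array, against 6.83 to 8.39 in DN3 and 5.48 to 6.57 in LAK. It no longer passed against both without background correction (larger adjusted p = 0.0624) or with the authors' values (0.06). H2-Ab1 was at 5.03, 4.91, 5.50 and 5.47 in ITNK against 6.94 to 9.07 and 5.53 to 7.16 (adjusted p = 0.000145 and 0.0241). Without ITNK 1, ITNK 2, LAK 2, LAK 3 or LAK 4 it was no longer past the test against both (larger adjusted p of 0.0503 to 0.0756). The same held without background correction (0.102), with an offset of 50 (0.0595), the authors' values (0.0764), no detection filter (0.0682) or the mean of its probes (0.0953), so that it kept its class in 11 of 21 alternatives. Its 2 other probes were apart from DN3 alone.

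**Figure D3:**
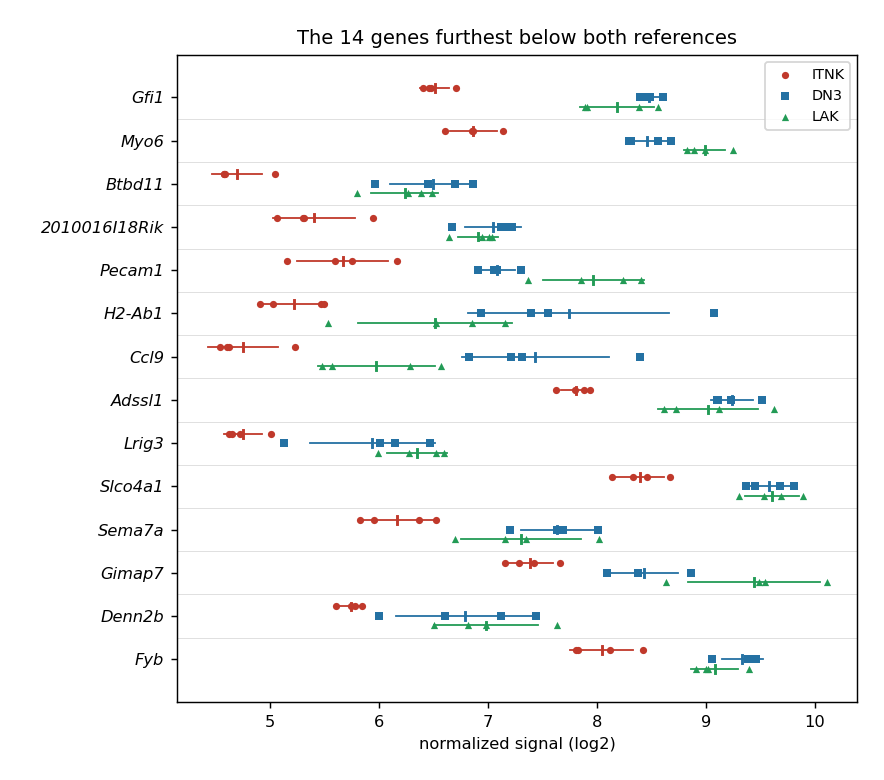
Normalized log2 signal of the 14 genes with the largest margins below both references, 1 point per array and 4 arrays per group, with the group mean (tick) and 1 SD (line). The 4 ITNK arrays of Gfi1 sit at 6.41 to 6.71, and the widest reference spread is that of H2-Ab1.

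Genes known to respond to interferons had the highest share above both references among the 33 lists with at least 10 measured members. The lists were chosen with earlier results of these data known, so here and below their shares and order are descriptive and give no test. Of 27 measured members 12 were above both (44.4%, against 5.23% of all genes tested), 0 were below both and 1 lay between. The median pooled difference of the list was 0.76, against -0.03 over all genes, and the ITNK mean was above both reference means in 24 of the 27. The mean level of the list was 8.16 to 8.41 on the ITNK arrays, 7.0 to 7.50 on the DN3 arrays and 7.56 to 7.86 on the LAK arrays, with no overlap. Interferon-stimulated transcription is driven by factors of the STAT and IRF families that bind the interferon-stimulated response element, whose core is searched here as GAAANNGAAA on either strand, overlapping matches included.

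Promoter windows of 250 bases before the gene start (RefSeq, GRCm38.p6) are shown for the members with the largest margins that hold this core, to let the element be seen beside the values. They lie at chr19:34583279-34583528 on the plus strand for Ifit3, chr4:156200819-156201068 on the minus strand for Isg15 and chr3:142620413-142620662 on the plus strand for Gbp2. Each is written 5′ to 3′ along the gene, with matches in capitals.
Ifit3: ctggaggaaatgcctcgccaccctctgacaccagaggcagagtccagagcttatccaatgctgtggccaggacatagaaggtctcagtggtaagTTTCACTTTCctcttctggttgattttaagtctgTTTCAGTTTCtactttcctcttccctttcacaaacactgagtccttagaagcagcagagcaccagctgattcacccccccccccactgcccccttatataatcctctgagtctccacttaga
Isg15: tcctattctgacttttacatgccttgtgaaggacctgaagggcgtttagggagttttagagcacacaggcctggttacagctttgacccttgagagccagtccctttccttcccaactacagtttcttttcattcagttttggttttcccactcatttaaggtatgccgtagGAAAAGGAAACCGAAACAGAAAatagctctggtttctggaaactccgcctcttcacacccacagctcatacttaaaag
Gbp2: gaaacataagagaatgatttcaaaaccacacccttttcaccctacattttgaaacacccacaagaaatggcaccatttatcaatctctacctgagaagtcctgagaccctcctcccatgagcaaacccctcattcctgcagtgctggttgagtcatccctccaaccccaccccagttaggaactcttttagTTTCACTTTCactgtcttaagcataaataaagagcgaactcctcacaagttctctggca
The core was found 2 times in the Ifit3 window, 3 overlapping times in that of Isg15 and 1 time in that of Gbp2, and 0 times in that of Oasl2. Windows were at hand for 21 of the 27 measured members, of which 11 held the core (52.4%), 6 of 10 among members above both and 5 of 11 among the others. It was present in 2.98% of all 32851 windows of this length in the table and in 3.43% of the 6648 tested genes with a window. These matches describe the letters of the windows and say nothing of binding.

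Ifit3, a protein that inhibits translation of viral RNA, was at 7.48, 7.07, 7.86 and 7.56 in ITNK, 5.46, 5.72, 5.16 and 5.37 in DN3 and 5.04, 5.07, 6.13 and 5.51 in LAK. The differences were 2.06 and 2.05 (SE 0.23, adjusted p = 4.94e-06 and 8.2e-06 in limma), with ITNK the highest, while LAK and DN3 were 0.01 apart (adjusted p = 0.969). Isg15, a ubiquitin-like modifier, was at 7.33, 7.21, 7.06 and 7.69 in ITNK, 5.79, 5.88, 6.40 and 5.49 in DN3 and 5.11, 5.48, 5.92 and 5.17 in LAK, differences of 1.43 and 1.90 (SE 0.21). Gbp2, a guanylate-binding protein of defence against intracellular pathogens, was at 10.51, 10.36, 10.68 and 10.72 in ITNK, 8.61, 9.30, 10.11 and 9.09 in DN3 and 8.93, 8.87, 8.56 and 7.95 in LAK, differences of 1.29 and 1.99 (SE 0.27). DN3 3 was the highest DN3 array for Isg15 and Gbp2 and still lay below every ITNK array.

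Oasl2, a relative of the oligoadenylate synthetases, was at 6.40, 6.40, 5.50 and 6.28 in ITNK and 4.74, 4.66, 5.49 and 4.68 in LAK, and was detected on no DN3 array (at least 3.17-fold, adjusted p = 1.59e-05; 1.25 above LAK, adjusted p = 0.000382). The lowest ITNK array (ITNK 3) and the highest LAK array (LAK 3) were side by side. The other 8 members above both, named after their values were seen, were Ifitm3, which blocks viral entry, the RNA sensor Dhx58, the antiviral enzyme Rsad2, the transcription factor Irf7, the membrane protein Bst2 and Ifi27, Igtp and Isg20, with margins of 0.60 to 1.03. Igtp, Ifi27 and Bst2 were apart from LAK alone when slide was a block, which left 9 above both, and over all alternatives 9 to 15 members were above both. Ube2l6, the conjugating enzyme that attaches Isg15 and no member of the list, was likewise above both, detected on 0 reference arrays and at least 4.34-fold and 5.43-fold higher.

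Members that were not above both show where the list divides. Ifit2, a relative of Ifit3, was lower than DN3, at 6.08 to 6.59 in ITNK, 6.95 to 7.29 in DN3 and 6.16 to 6.53 in LAK (differences of -0.86, adjusted p = 8.34e-05, and -0.02, adjusted p = 0.939). Irf8, an interferon regulatory factor of myeloid and natural killer cells, lay between, at 5.66 to 6.43 against 4.60 to 5.38 and 9.05 to 10.00. Irf9, the DNA-binding partner of the STAT proteins in type I interferon signalling, was above DN3 by 0.86 (adjusted p = 0.00122) and differed from LAK by 0.35 (adjusted p = 0.152). Ifng itself, which encodes interferon gamma, was at 7.65, 7.58, 8.76 and 8.40 in ITNK, 7.37 to 8.0 in LAK and detected on no DN3 array. It was thus at least 11.4-fold above DN3 and 0.38 from LAK (adjusted p = 0.215), with overlapping arrays. The chemokine Cxcl9, an interferon gamma target picked out after its values were seen, was at 6.92, 5.20, 8.21 and 5.93 on the ITNK arrays and detected on 0 reference arrays (at least 4.09-fold and 4.01-fold, adjusted p = 0.00129 and 0.00289). Its ITNK arrays were spread widely, with ITNK SD 1.30.

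**Figure D4:**
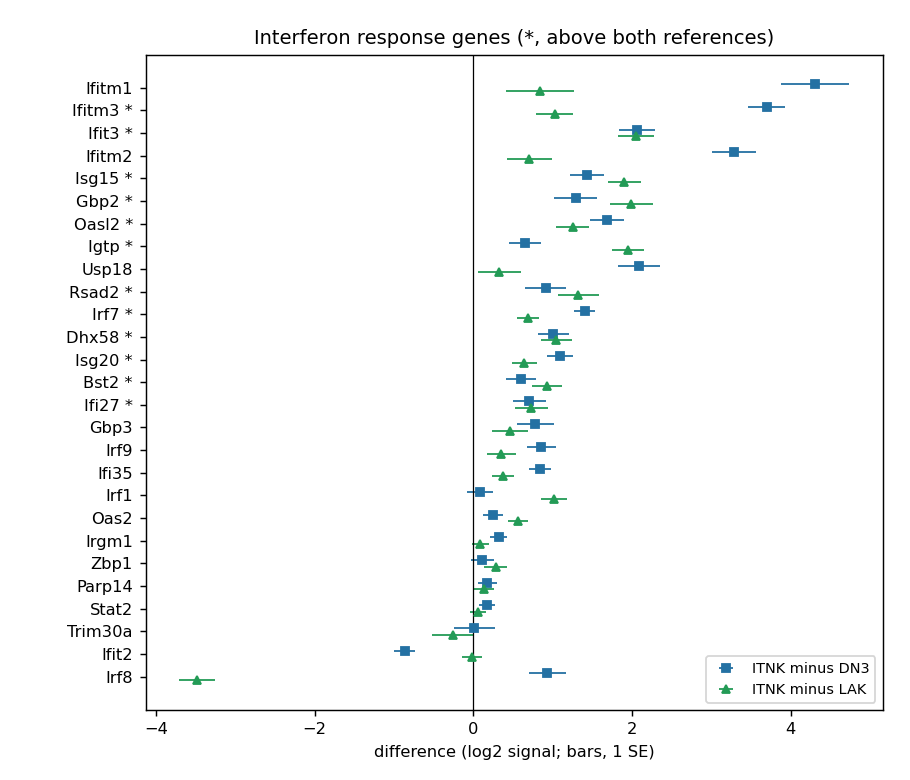
Differences of ITNK from DN3 (squares) and from LAK (triangles) on the log2 scale with 1 SE for the 27 measured interferon response genes, ordered by their pooled difference, with a star on the 12 above both. Ifit3 is at about the same distance from each reference (2.06 and 2.05), whereas Irf8 is above DN3 and below LAK.

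Secreted cytokines and chemokines had the next highest share. Of 17 measured members 7 were above both (41.2%), 1 below both and 4 between (11.5% of all genes lay between). The median pooled difference was 1.10, and 5 to 8 were above both over the alternatives. Lta, Tnf, Tnfsf14 and Tnfsf11 belong to the TNF family, Lif and Osm to the interleukin 6 family, and Tgfb3 was the last. Tnf, the inflammatory cytokine, was at 7.99, 8.29, 8.32 and 8.38 in ITNK, 5.35 to 5.92 in DN3 and 6.83 to 7.08 in LAK, differences of 2.62 and 1.31 (SE 0.14, adjusted p = 5.86e-09 and 5.97e-06 in limma). Lta and Tnf are neighbours within the class III region of the major histocompatibility complex.

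Tgfb3, a transforming growth factor, was at 6.35, 6.57, 6.29 and 6.22 in ITNK and detected on no reference array, at least 3.41-fold and 3.74-fold higher. Osm, oncostatin M of the interleukin 6 family, was at 10.92, 11.07, 11.17 and 11.29 in ITNK against 8.96 to 9.67 and 10.05 to 10.89, a narrower gap. When slide was a block it no longer passed against both (larger adjusted p = 0.0632). By contrast the natural killer chemokines lay between the references or close to LAK. Ccl3, detected on no DN3 array, was at least 4.16-fold above DN3 and differed by -3.44 from LAK, and Ccl4 differed by 3.19 and -3.27. Xcl1 differed by 4.94 from DN3 and by -0.05 from LAK (adjusted p = 0.926).

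Genes of tissue-resident and intraepithelial lymphocytes followed, with 4 of 12 measured members above both (33.3%), 0 below both and a median pooled difference of 1.24. Itgae, the CD103 integrin chain that binds E-cadherin on epithelium, was at 11.36, 11.22, 11.18 and 11.20 in ITNK, 9.22 to 10.77 in DN3 and 4.70 to 5.57 in LAK. Its partner chain Itgb7 was at 11.64, 11.92, 11.47 and 11.84 in ITNK against 9.29 to 10.29 and 8.04 to 9.51. ITNK exceeded DN3 by 1.29 in Itgae (SE 0.28) and 1.94 in Itgb7 (SE 0.26), and exceeded LAK by 6.06 and 2.90. All 4 other probes of Itgae were also above both. Both chains of this integrin were therefore above both references, Itgae mainly against LAK.

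Cdh1, E-cadherin itself, was above both at a lower level, 6.26, 6.31, 5.82 and 6.18 in ITNK against 4.70 to 5.36 and 4.96 to 5.71 (differences of 1.02 and 0.90, SE 0.18). Cd160, a receptor of natural killer cells and intraepithelial lymphocytes and the 1 member above both among 21 natural killer receptors and adaptors, was at 12.45, 12.17, 12.55 and 12.33 in ITNK, 8.42 to 9.07 in DN3 and 10.21 to 11.61 in LAK. The residency marker Cd69 did not go beyond LAK, at 10.46 to 11.43 in ITNK and 10.58 to 11.20 in LAK with overlapping arrays (difference of 0.10, adjusted p = 0.783).

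Circulation and egress genes had 1 of 13 members above both (7.69%, near the 5.23% of all genes) and 0 below both. That member was Cx3cr1, the fractalkine receptor, which was at 6.76, 6.84, 6.92 and 6.58 in ITNK and detected on no reference array, at least 5.15-fold and 5.28-fold higher. Ccr8, the 1 member above both of 6 measured type 2 innate lymphoid genes, was detected in ITNK alone as well, at 5.56, 5.50, 5.59 and 5.41 and at least 2.09-fold and 2.01-fold higher. Gpr18, a lipid receptor of intraepithelial T cells, was at 9.48 to 9.75 in ITNK against 7.20 to 8.02 and 8.20 to 8.86. Cxcr5, a follicle-homing receptor, and the integrin chain Itgad were named after their values were seen, with Cxcr5 at 8.40, 7.85, 8.70 and 8.26 in ITNK, 6.42 to 6.83 in DN3 and 4.60 to 5.16 in LAK. Itgad was at 7.33, 7.30, 7.81 and 7.16 in ITNK, detected on no DN3 array and on 2 LAK arrays (at least 7.11-fold above DN3 and 2.43 above LAK). Cxcr3, by contrast, was apart from DN3 alone.

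Innate-like T cell genes gave 2 of 10 above both and 0 below both, with a median pooled difference of 0.51. Cd163l1, a scavenger receptor of gamma-delta T cells, was at 11.55, 11.66, 11.46 and 11.47 in ITNK, 10.45 to 10.90 in DN3 and 4.58 to 5.30 in LAK. It was abundant in the parental cells, and ITNK exceeded them by 0.85 (SE 0.15, adjusted p = 0.000349). Gpr183, an oxysterol receptor, was above both by 1.63 and 0.99, and with the slide block it was apart from DN3 alone (larger adjusted p = 0.0668).

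Costimulatory and inhibitory receptors were above both in 4 of 16 (25%) and below both in 1, with a median pooled difference of 0.47. The member below both was Tnfrsf8 (CD30), detected on 0 ITNK arrays, 1 DN3 array and 4 LAK arrays (at least 1.3-fold and 1.69-fold lower, adjusted p = 0.039 and 0.001), and it was apart from LAK alone under the slide block. Beside Nt5e, Tnfrsf18 (GITR) was at 9.91, 9.95, 10.00 and 10.01 in ITNK against 8.38 to 9.15 and 8.78 to 9.37, and Cd28 was higher by 0.81 and 0.41 (SE 0.11). Lag3, an inhibitory receptor, was at 8.78 to 9.21 in ITNK, 4.82 to 5.96 in DN3 and 8.23 to 8.81 in LAK. Its difference of 0.63 from LAK (adjusted p = 0.0473) no longer passed under the slide block (0.0846) or without ITNK 1, ITNK 2, ITNK 4, LAK 1, LAK 3 or LAK 4 (larger adjusted p of 0.078 to 0.118). Havcr2, the inhibitory receptor TIM-3, lay between, detected on no DN3 array and -1.83 from LAK.

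Targets of IL-2 and STAT5 signalling were above both in 5 of 20 (25%) and below both in 0, with a median pooled difference of 0.46, and 2 of the 5 stayed above both with slide as a block. Those 2 were Lta and Socs1, a feedback inhibitor of cytokine receptors, and the others were Osm, Pim2 and Bcl2l1. Bcl2l1 kept its class in 7 of 22 alternatives, though its other probe was above both. The other probe of Pim2 was apart from DN3 alone. Socs1 was at 5.62, 5.82, 5.69 and 5.56 in ITNK, 5.07 to 5.46 in DN3 and 4.84 to 5.05 in LAK, differences of 0.38 and 0.76 (SE 0.10). Cish, a further feedback inhibitor, was above DN3 by 2.09 and differed from LAK by 0.46 (adjusted p = 0.0643). Of 22 cytokine receptors 0 were above or below both in limma. Among them 9 lay between, 5 were apart from DN3 alone and 5 from LAK alone, against 11.5%, 31.3% and 13.3% of all genes tested. At an unadjusted p under 0.05 in each comparison 0 of the 22 were beyond both. The share of all genes at this unadjusted limit was not counted, here or below, so such counts stand without a comparison.

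Cytoskeletal and calcium-binding proteins were frequent above both. Of 24 actin and cytoskeleton regulators 5 were above both (20.8%) and 1, Myo6, below both, with a median pooled difference of 0.67; those above were Gsn, Lmna, Emp1, Vim and Emp3. With slide as a block Lmna and Emp1 were apart from DN3 alone (adjusted p against LAK of 0.0741 and 0.0564), and 4 of the 24 were above both. Of 14 annexins, S100 proteins and galectins 4 were above both (28.6%) and 0 below both, with a median of 1.05. Anxa6 was 1 of these 4, though another of its probes fell in a different class. Vim, the intermediate filament vimentin, was at 12.28, 12.09, 12.07 and 12.05 in ITNK, 8.47 to 9.29 in DN3 and 10.46 to 11.06 in LAK, differences of 3.32 and 1.46 (SE 0.17). S100a4, a calcium-binding protein of motile cells, was at 7.67, 7.73, 7.53 and 7.33 in ITNK against 4.74 to 5.32 and 5.45 to 6.10, and its neighbour S100a6 at 10.12, 10.36, 10.14 and 10.10 against 7.26 to 8.01 and 9.46 to 9.85. Emp3, a tetraspan membrane protein, was higher by 0.81 and 1.20 (SE 0.12), and the secreted glycoprotein Lgals3bp by 1.29 and 1.04 (SE 0.13). In Vim, S100a4 and S100a6 LAK was also above DN3, so ITNK continued past LAK.

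Surface tetraspanins and lysosomal proteins gave 3 members above both each, of 19 and 18, and 1 below both each, Cd84 and Npc1, with median pooled differences of 0.15 and 0.12. Cd63 is in both lists, with Cd7 and Cd9 in the first and Ctsc and Scarb2 in the second. Cd84 no longer passed against both with slide as a block (larger adjusted p = 0.0526), median scaling (0.054), the authors' values (0.0828) or without ITNK 1 (0.0649), and Scarb2 kept its class in 15 of 22 alternatives. Cd7, a surface protein of early T and natural killer cells, was at 8.05, 8.20, 8.24 and 7.83 in ITNK, 5.58 to 6.51 in DN3 and 5.63 to 6.81 in LAK. Its differences were 2.08 and 2.00 (SE 0.23), so it stood at about the same distance from both. Cd63, a tetraspanin of lysosomes and secretory granules, was at 10.37, 9.89, 10.21 and 9.87 in ITNK against 7.75 to 9.23 and 7.63 to 8.04, and Cd9 exceeded LAK by 0.71 and DN3 by 2.88. Npc1, which exports cholesterol from lysosomes, was below both at 9.43 to 9.81 against 10.30 to 10.54 and 10.50 to 11.01. Its 2 other probes were apart from LAK alone and in opposite directions, at -0.94 and 0.47 from LAK (adjusted p = 0.000596 and 0.00946), so the probes disagree.

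Enzymes of nucleotide handling were above both in 3 of 20, Upp1, Nt5e and Samhd1, and below both in 1, Tk2, with a median pooled difference of -0.11. Tk2 was apart from DN3 alone with slide as a block (larger adjusted p = 0.24) and kept its class in 12 of 22 alternatives; it also lost it without ITNK 1, ITNK 3, ITNK 4, LAK 2, LAK 3 or LAK 4 (0.0595 to 0.0942). Samhd1, a dNTP hydrolase that also restricts viruses, was at 8.39, 8.19, 7.93 and 7.95 in ITNK, 5.82 to 6.59 in DN3 and 6.54 to 7.33 in LAK, and its other probe was apart from DN3 alone. Glycosyltransferases other than B3gnt8 were noticed after their values were seen. Gcnt2, which branches poly-N-acetyllactosamine, was at 8.46, 8.75, 8.61 and 9.12 in ITNK against 4.55 to 5.18 and 6.47 to 6.78, and B4galnt4 at 7.86, 7.45, 7.85 and 7.80 against 4.52 to 5.35 and 4.98 to 5.89. Adora3, a receptor for the adenosine that CD73 makes, was likewise seen afterwards, at 6.72, 6.59, 6.31 and 7.15 in ITNK and detected on no reference array (at least 4.82-fold and 4.3-fold higher).

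Other lists had 1 or 2 members above both, and for the lists of Xbp1 (6.67%), Elovl6 (5.26%) and Klf6 (6.67%) the share was near the 5.23% of all genes tested. Xbp1, a transcription factor of the unfolded protein response, was the 1 of 15 members of its list above both, at 10.24 to 10.61 in ITNK against 9.06 to 9.81 and 9.53 to 9.88. Elovl6, a fatty acid elongase, was the 1 of 19 lipid genes (differences of 0.81 and 1.20), and Klf6 the 1 of 15 quiescence factors (0.90 and 0.82). Slc6a13, a GABA transporter, was 1 of 2 above both among 8 recombination and pre-T cell receptor genes, at 5.68 to 6.10 in ITNK against 4.82 to 5.67 in LAK and no detection in DN3 (at least 2.56-fold). Gna15, a G protein alpha subunit of blood cells, was above both with Gpr18 among 17 G protein signalling genes, while Gpr65 and Pde4b were below both. Pde4b no longer passed against both with slide as a block (larger adjusted p = 0.0997), with the authors' values (0.058) or without ITNK 3 or LAK 2 (0.0544 and 0.06), nor did Gpr65 with median scaling (0.104). Foxp3, a T cell factor picked out after its values were seen, was below both at 6.96 to 7.29 against 7.96 to 8.20 and 7.92 to 8.33, and its other probe was apart from DN3 alone. Kir3dl2, an immunoglobulin-like receptor picked out in the same way, was at 6.11, 7.07, 6.97 and 7.13 in ITNK and detected on no reference array, at least 5.27-fold and 4.87-fold higher, and signal shared with related receptors was not tested.

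GIMAP GTPases were below both in 2 of 6 measured members and above both in 0, with a median pooled difference of -0.31. Gimap7 is described above, and Gimap6 differed by -0.53 and -0.83 (SE 0.16), and was apart from LAK alone under the slide block (larger adjusted p = 0.0516) and not past both with median scaling (0.417). Gimap5 was above DN3 by 0.80 (adjusted p = 0.0104) and differed from LAK by -0.40 (adjusted p = 0.208). The CDK inhibitor and p53 target list had 5 of 22 above both (22.7%), Cdkn2d, Pmaip1, Phlda3, Gadd45a and Ei24, and 0 with slide as a block. Their margins were between 0.31 and 0.73 for Gadd45a and between 0.14 and 0.46 for Pmaip1 over the alternatives, and Pmaip1 kept its class in 2 of 21.

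Counts of 0 or 1 beyond both were found in several programmes that mark these cells; in lists of this length they are near the shares of all genes tested (5.23% above and 3.63% below). Among 29 cell cycle genes 0 were above or below both in limma (0 also at an unadjusted p under 0.05 in each comparison). Of these genes 21 did not pass against either reference, against 35% of all genes tested. Among 13 natural killer transcription factors and 6 measured progenitor and mast cell transcription factors 0 were beyond both by limma, and 0 at unadjusted p. Tbx21, which directs natural killer maturation, lay between at 5.15 to 5.83 in ITNK, with no detection in DN3 and 6.43 to 7.53 in LAK, and Zbtb32 was at 10.86 to 11.65 in ITNK against 10.94 to 11.82 in LAK, a difference of -0.0018 with SE 0.20 (adjusted p = 0.996). Among 15 T lineage transcription factors Gfi1 was the 1 below both, 0 were above and 11 lay between. Of the natural killer receptors and adaptors 11 of 21 lay between, and all 6 measured Ly49 receptors were apart from LAK alone. Over all genes tested 11.5% lay between and 13.3% were apart from LAK alone.

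In the cholesterol, amino acid, heat shock and glycolysis lists the counts at adjusted p were likewise near or under those shares. Cholesterol synthesis (16 genes), the amino acid and ATF4 response (28) and cytosolic heat shock proteins (13) held 0 members beyond both in limma. At an unadjusted p under 0.05 in each comparison 3, 0 and 0 were above both. The share of all genes at that unadjusted limit was not counted, so it cannot be said whether these counts exceed it. By means alone, without a test, ITNK was above both references in 4 and below both in 14 of the 28 amino acid and ATF4 genes, and above both in 6 and below both in 1 of the 16 cholesterol genes. Over all genes these shares by means were 21.4% above and 26.4% below. The ITNK arrays were split in the amino acid and ATF4 list, with mean levels of 7.34, 8.20, 7.22 and 8.19 on ITNK 1 to 4. DN3 arrays were at 7.84 to 8.13 and LAK arrays at 7.66 to 8.54, so ITNK 1 and ITNK 3 alone were below the references. Glycolysis and hypoxia genes (23) held 0 above and 1 below both, Ankrd37, which kept its class in 5 of 21 alternatives, and by means alone ITNK was below both in 8 of the 23. Outside those lists, Bcl2 family genes had 2 of 14 above both (14.3%, Bcl2l1 and Pmaip1) and immediate early genes 2 of 29 (6.9%, Fos and Dusp4). Cytotoxic granule and death ligand genes had 2 of 19 (10.5%, Ctsc and Tnfsf10), against 5.23% of all genes tested. With slide as a block these counts were 0 of 14, 0 of 29 and 1 of 19, as Fos was then apart from LAK alone, Dusp4 from neither reference and Tnfsf10 from DN3 alone. Fos kept its class in 11 of 21 alternatives, Dusp4 in 11 of 22 and Bcl2l1 in 7 of 22. The NuRD and Polycomb list (15) and the Notch pathway list (9) held 0 beyond both in limma, and 1 and 0 above both at unadjusted p. H2-Ab1 was the 1 member below both of 20 antigen presentation genes and Cd28 the 1 above both of 16 T lineage surface and signalling genes.

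**Figure D5:**
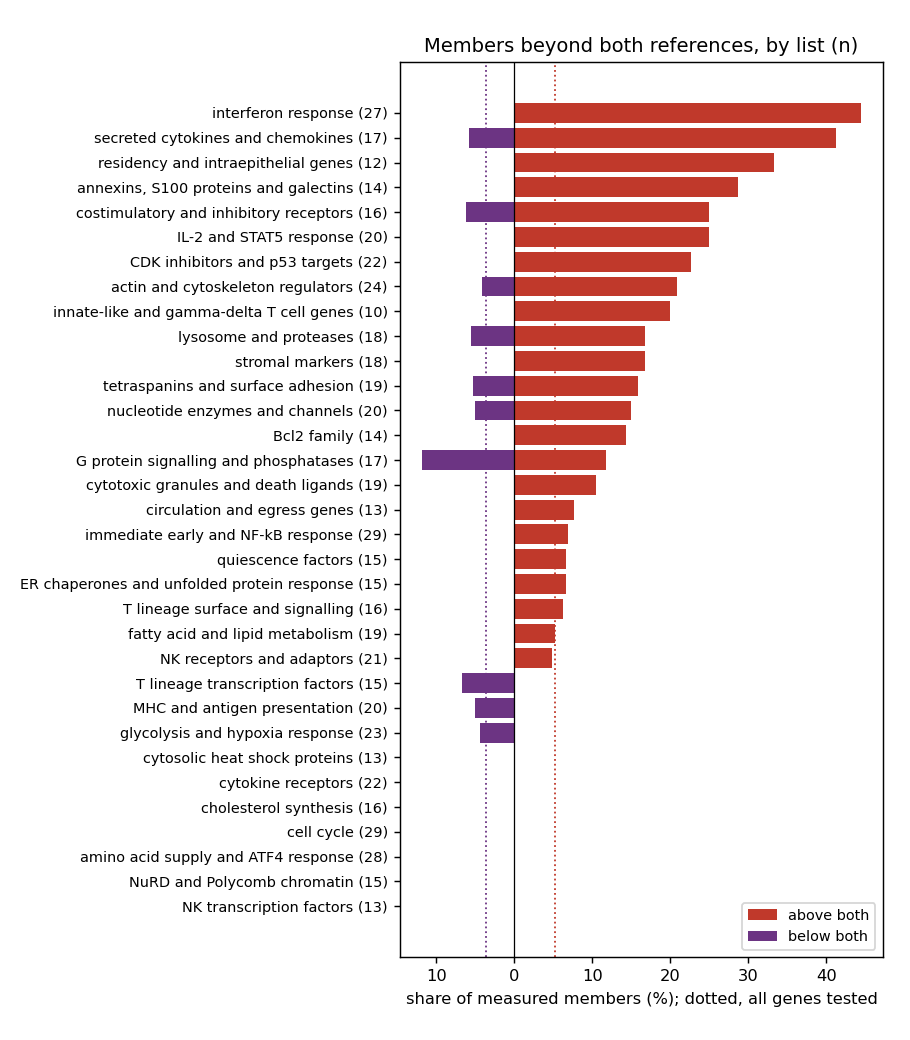
Share of measured members above both references (bars to the right) and below both (bars to the left) for the 33 lists with at least 10 measured members; dotted lines give the shares of all 8100 genes (5.23% and 3.63%). Interferon response (44.4%) and secreted cytokines (41.2%) have the longest bars, and the cell cycle list has none. The lists were chosen with earlier results of these data known.

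Transcripts of other cell types were measured beside these results. Of 18 measured stromal markers 3 were above both, 0 below both and 9 between (5.23%, 3.63% and 11.5% of all genes). The list's mean level was 6.13 to 6.72 on ITNK arrays, 6.52 to 7.77 on DN3 arrays and 4.44 to 4.48 on LAK arrays. Bgn, a matrix proteoglycan, was at 8.65 to 9.24 in ITNK, 9.58 to 11.28 in DN3 and detected on no LAK array, and Col1a1, the main fibrillar collagen chain, was detected on 1 ITNK array, 4 DN3 arrays and 0 LAK arrays. The 3 stromal markers above both were Timp3, an inhibitor of metalloproteinases, at 7.18, 7.76, 7.56 and 7.78 in ITNK against 4.84 to 5.79 in DN3, Ccn2, a matricellular protein, at 8.39, 8.39, 9.18 and 8.34 against 5.77 to 7.95, and Igfbp4, at 10.37, 9.66, 10.44 and 9.99 against 9.01 to 9.35; none of the 3 was detected in LAK. The list's mean ranges overlapped between ITNK and DN3 and lay far above LAK, and 17 of the 18 markers were detected on no LAK array. The part of stromal RNA in genes above both was not tested.

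Few markers of blood cell types were measured. Of 4 myeloid markers 0 were beyond both in limma (0 at unadjusted p), and their mean level was 4.87 to 5.00 in ITNK, 4.95 to 5.19 in DN3 and 5.10 to 5.45 in LAK. Of 4 measured mast cell markers the protease Cpa3 was above both, at 8.81, 7.87, 8.55 and 7.60 in ITNK against 6.33 to 7.80 in DN3 and 4.68 to 5.55 in LAK, with arrays that overlapped those of DN3. It no longer passed against both under the slide block (larger adjusted p = 0.117) or without ITNK 1, ITNK 3 or DN3 4 (0.0614 to 0.072). The mast cell protease Cma1 was detected on 0 ITNK, 0 DN3 and 4 LAK arrays, and the mean of the 4 markers was 6.83 to 7.10 in ITNK, 6.10 to 6.65 in DN3 and 6.14 to 6.55 in LAK. Hba-a1 was above both and Car2 between among 2 measured erythroid and platelet markers, whose mean was 7.50 to 7.82 in ITNK, 4.93 to 5.12 in DN3 and 7.05 to 7.51 in LAK, and the 1 measured B cell marker, Cd79b, lay between. The part of such cells in the results was not tested.

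The margins near the limit of the test were small. The genes above both with the smallest margins were Zfp787, Atp6v0d1 and Tmed10 at 0.24 to 0.25, and those below both were D5Ertd579e, Thnsl1 and Slc4a1ap at -0.23 to -0.25.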

How the data were processed

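Transcript levels came from 12 Illumina mouse bead arrays, 4 each of ITNK, DN3 and LAK, grouped by the samples' labels. The authors deposited mean bead intensity per probe and array, without normalization between arrays per the file headers, and beside it a detection value, the fraction of negative control beads that a probe exceeds. The authors also deposited processed log2 values, whose method is not given in the sources used here; these were used as an alternative. Scale, from a match to each array's own signals, is log2, while their background step and centring stay unknown.

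Intensities were background-corrected, offset by 16, quantile normalized and put on the log2 scale with limma 3.58.1 (neqc, R 4.3.3), treating 1 minus the detection value as the detection p. Probes with a detection p under 0.01 on at least 4 arrays were kept (13571 of 45274; per array 11814 to 13141 were detected, and median signal was 58.9 to 75.3). Of all probes 34880 had 1 gene symbol, 18 several and 10376 none here. Symbols were updated through Entrez numbers (34802 of 34898 matched), and the brightest kept probe stood for each of 8100 genes. A linear model over the 3 groups gave ITNK minus DN3, ITNK minus LAK and ITNK minus the equal-weight mean of both, each with Benjamini-Hochberg adjustment over all 8100 genes and a threshold of 0.05. SE is that of the moderated fit. Adjusted p-values in the text are those of limma.

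Named genes were Bcl11b, the 14 with the largest margins above and the 14 below both among genes without overlapping arrays and detected throughout the higher group, and up to 4 members of each list by margin with up to 2 for contrast. The members and lists were chosen with earlier results of these data known. Where a gene was detected on no array of a group, a fold is at least the brighter group's mean against, per array, the higher of the lowest detected signal and the gene's own. The classification was tested on simulated data. Replicate arrays correlated at 0.974 to 0.992, and at most 0.705% of probes had identical values on a pair of arrays. Arrays with the same replicate number did not deviate together (r from -0.339 to 0.209). Alternatives covered scaling, background, offset, the authors' values, detection filters, probe choice, slide, replicate block, spread model, reference grouping, p adjustment and leaving out each array.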

Additional observations from a re-analysis of the deposited data

Results flagged for a closer look

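Among 251 combinations of a named gene and a group of 4 arrays with detection on all 4, 15 had 1 array set apart from the others, by a gap that exceeded Dixon's critical share of the group's range, where chance alone gives about 1 in 20. Values are log2 signal.

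In the targeted gene Bcl11b, ITNK 1 was at 9.10 against 8.38 to 8.49 on the other ITNK arrays, and DN3 2 was at 11.41 against 11.85 to 11.92. Both stayed on the same side of the other groups. Among genes above both references, Otof was at 7.10 on ITNK 4 (others 7.44 to 7.50), Oasl2 at 5.50 on ITNK 3 (6.28 to 6.40), and Vim at 12.28 on ITNK 1 (12.05 to 12.09). S100a6 was at 10.36 on ITNK 2 (10.10 to 10.14), B4galnt4 at 7.45 on ITNK 2 (7.80 to 7.86) and Kir3dl2 at 6.11 on ITNK 1 (6.98 to 7.13).

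In the stromal marker Ccn2 array 3 stood high in both populations, at 9.18 on ITNK 3 (others 8.34 to 8.39) and 7.95 on DN3 3 (5.77 to 5.93). Reference arrays were set apart in Tnfrsf18, at 8.78 on LAK 4 (9.29 to 9.37), in Dusp4, at 5.49 on DN3 4 (6.00 to 6.07), and in Cxcr5, at 6.42 on DN3 4 (6.81 to 6.83). In the genes below both, Npc1 was at 11.01 on LAK 3 (10.50 to 10.57) and Pde4b at 6.03 on ITNK 3 (6.22 to 6.24).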

How the results depend on the processing

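Counts are compared with 424 genes above and 294 below both references (125 and 14 at least 2-fold) and 1348 higher and 1414 lower in the pooled comparison (334 and 110 at least 2-fold). With median scaling and no quantile step 114 were below both and 599 lower. Without background correction 54 and 4 were at least 2-fold above and below both, and 145 and 39 at least 2-fold higher and lower. With an offset of 50 these were 66, 5, 188 and 59. With the authors' values they were 62, 4, 165 and 44, and 186 were below both. With probes detected on all 12 arrays 270 were above both, 47 at least 2-fold, with 145 and 42 in the pooled comparison, where 5846 genes were tested. Slide as a block left 157 below both. Adjusting the larger p once left 267 above and 120 below both. Treating the 8 reference arrays as 1 group left 354 higher and 228 lower, 165 and 30 at least 2-fold, since the DN3 to LAK difference then counts as spread. Apart from the last 2, whose construction is given, the cause of these moves was not tested.

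The replicate block gave 400 above and 255 below both, and 1247 higher and 1295 lower; the numbers do not pair the arrays. Leaving out each array in turn gave 366 to 434 above both, 233 to 326 below both, 120 to 135 and 12 to 19 at least 2-fold, 1151 to 1416 higher and 1145 to 1533 lower, and 320 to 343 and 102 to 119 at least 2-fold. Over the named genes with a margin, 1895 values over the alternatives kept their direction and side of the threshold, 150 in 24 genes no longer passed, and 0 reversed. For genes detected on no array of a group the signal gives a bound and no fold.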
